A study of Homo sapiens with 4 samples.

Results

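IL4I1, the receptor genes IL4R, IL13RA1, IL13RA2, IL7R, IL15RA and IL2RG, the cytokine genes IL7 and IL15, and IL32 form a group of 10 genes around the common gamma chain and IL-4 cytokines. They were chosen by name, as every probe of a member gene on the 4 arrays. The array files hold no column of gene names, so probes were named by matching their transcript accession to RefSeq genes. In this way 14 of the 34127 probes belonged to 9 of the 10 genes, out of 19102 genes named on the arrays. No probe was matched to IL15, which is not analysed here. PC3 is an established prostate cancer cell line of epithelial origin. The cells carried a lentiviral shRNA against ALKBH3, an alkylation repair demethylase, or a control shRNA against GFP, and all of them went through infection and puromycin selection. RNA was collected 48 h or 96 h after selection, and each shRNA was measured on 1 array per time point. The ALKBH3 shRNA construct is not named in the labels, and a single cell line was studied.

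Cytokines of the common gamma chain family signal through receptors that share the subunit encoded by IL2RG. IL-7 binds IL7R together with this subunit, and IL15RA holds IL-15 at the cell surface and presents it to neighbouring cells. IL-4 signals through IL4R paired either with the common gamma chain or, on epithelial and stromal cells, with IL13RA1, whereas IL13RA2 binds IL-13 tightly and is best known as a decoy. JAK kinases on the receptor tails phosphorylate STAT factors, of which STAT6 serves IL-4 and IL-13 and STAT5A and STAT5B serve IL-7 and IL-15. IL4I1 is a secreted amino acid oxidase first found as an IL-4 induced gene, and some of its products activate the aryl hydrocarbon receptor AHR. IL32 is a proinflammatory cytokine that does not belong to the gamma chain family and is made by epithelial and immune cells after inflammatory stimulation.

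The start regions of IL32, IL7R, IL4I1 and IL15RA are shown first, since the first 3 of these genes had the highest differences between the shRNAs among the members and IL15RA held most of the motif matches. RefSeq windows of 300 bases (GRCh38.p14, 250 bases before to 50 after a transcript start, written in the direction of transcription) were found for 7 of the 10 genes, 11 windows in all. Capitals mark matches, on either strand, to 5 motifs: the interferon response element ISRE (GAAA, any 2 bases, GAAA), the STAT element GAS (TTCNNNGAA), the STAT6 site (TTC, any 4 bases, GAA), the AP-1 site (TGANTCA) and the NF-kB site. None of the patterns is part of another, but the AP-1, GAS and STAT6 patterns read the same on both strands, so a match on both strands is 1 place. The windows are IL32 at chr16:3065153-3065452 on the plus strand, IL7R at chr5:35856641-35856940 on the plus strand, IL4I1 at chr19:49929455-49929754 on the minus strand and 1 of 4 IL15RA windows at chr10:5977562-5977861 on the minus strand.
IL32: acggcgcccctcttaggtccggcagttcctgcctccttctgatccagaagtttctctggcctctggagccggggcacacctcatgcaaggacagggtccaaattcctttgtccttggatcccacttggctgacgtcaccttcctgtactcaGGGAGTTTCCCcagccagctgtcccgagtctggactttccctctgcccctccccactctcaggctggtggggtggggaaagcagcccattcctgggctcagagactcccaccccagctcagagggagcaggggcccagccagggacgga
IL7R: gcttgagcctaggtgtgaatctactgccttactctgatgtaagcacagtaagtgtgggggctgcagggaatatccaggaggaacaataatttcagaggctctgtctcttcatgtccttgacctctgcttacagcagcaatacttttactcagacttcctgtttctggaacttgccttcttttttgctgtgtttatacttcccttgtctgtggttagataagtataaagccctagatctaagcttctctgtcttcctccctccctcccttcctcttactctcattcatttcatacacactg
IL4I1: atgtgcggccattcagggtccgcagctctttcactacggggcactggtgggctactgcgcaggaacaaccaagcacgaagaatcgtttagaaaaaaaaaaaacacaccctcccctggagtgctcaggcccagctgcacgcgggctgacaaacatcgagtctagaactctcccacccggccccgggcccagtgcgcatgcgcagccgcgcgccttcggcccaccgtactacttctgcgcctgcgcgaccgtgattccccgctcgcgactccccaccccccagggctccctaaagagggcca
IL15RA: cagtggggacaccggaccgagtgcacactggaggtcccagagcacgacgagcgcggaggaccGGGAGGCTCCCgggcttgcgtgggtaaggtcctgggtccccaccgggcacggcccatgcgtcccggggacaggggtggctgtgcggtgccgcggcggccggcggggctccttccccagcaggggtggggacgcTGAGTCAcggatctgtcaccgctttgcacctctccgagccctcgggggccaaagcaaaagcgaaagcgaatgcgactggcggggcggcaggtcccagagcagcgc
The IL32 window held an NF-kB match whose first base lies at -99 from the start, a pattern present in 11.3% of the 35116 RefSeq windows of this length. The second IL32 window held no match, and neither did those of IL7R, IL4I1, IL2RG or IL13RA1. The IL15RA window printed above held an NF-kB match at -188 and an AP-1 match at -55, a pattern in 7.71% of all windows. The same AP-1 match lies at -123 in a second, overlapping IL15RA window, and the window of a separate IL15RA start, at chr10:5968879-5969178, held another at -123. The remaining IL15RA window, at chr10:5977997-5978296, held a GAS match at -127, which 7.66% of all windows share. The IL4R window held NF-kB matches at -50 and -10. No member window held an ISRE or STAT6 match, found in 3.57% and 6.44% of all windows. These are matches of letters only. The IL4I1 window is also the start of NUP62, a nuclear pore gene at the same locus.

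The arrays were similar in quality. Between 67.0% and 70.9% of probes were well above background on each, 180 to 379 of 44495 spots were flagged, none was saturated, and the 75th percentile of signal lay between 2149.8 and 2394 intensity units. Both arrays of a time point shared a slide, so time and slide cannot be told apart. Except in fits with the time point as a block, the p-values given here measure the spread between arrays of 1 shRNA, which includes the time difference. ALKBH3 was lower with its shRNA on both of its probes, with log2 fold changes of -1.63 and -2.05. All 5 epithelial marker genes were well above background on the 4 arrays and 0 passed the cutoffs, with EPCAM at a log2 fold change of 0.98 and its groups apart (limma with the time point as a block, adjusted p = 0.0301), CDH1 at 0.74 with groups that overlapped, and KRT8, KRT18 and KRT19 between -0.18 and 0.031 at their brightest probes. The luminal marker KLK3 was above it on none. Of 10 leukocyte marker genes 7 were well above background on all arrays and 0 of those tested passed the cutoffs, with a summed signal of 3977 and 4141 in control and 4484 and 3984 in ALKBH3 shRNA arrays, most of it from CD79A. Of 5 fibroblast marker genes 4 were tested and LUM passed the cutoffs, with a log2 fold change of 1.98. LUM entered the test through its ALKBH3 shRNA arrays, with 283 and 129 intensity units there. In the control arrays it gave 67.2 and 32.0 and was well above background on 1 of them. DCN and COL1A1 were at 0.65 and 0.71 with an unadjusted p of limma under 0.05, and COL3A1 was at -0.43. The list's summed signal was 1417 and 996 in control and 2315 and 1884 in ALKBH3 shRNA arrays. COL1A2 was not well above background on any array. Their part in the results on the cytokine genes was not tested.

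In the cells with ALKBH3 shRNA, IL4I1 was 2.94-fold higher than with control shRNA and was the 1 member past the cutoffs of a 2-fold change and an unadjusted p under 0.05. IL7R was 2.71-fold and IL32 1.88-fold higher, while the IL-4, IL-13 and gamma chain receptors IL4R, IL13RA1, IL13RA2 and IL2RG differed by at most 1.16-fold and IL7 was 1.38-fold lower. All 9 genes were well above background on every array by at least 1 probe, so that PC3 cells gave signal for the receptors of both cytokine branches. Of 14 probes 13 were tested, 12 of them above background on all 4 arrays. Past the cutoffs were 1 of 13 probes in the higher direction, where 0.886% of all 23260 tested probes were, and 0 of 13 in the lower direction, where 0.232% were. The log2 fold change was above 0 for 9 of 13 member probes, against 50.6% of all probes, and had the same sign at both times for 10 of 13, against 68.7%. Over the 12 probes above background on every array these counts were 8 and 9. With limma's test 3 of 13 probes (IL4I1 and both IL32 probes) were higher at an unadjusted p under 0.05, a mark that 4.33% of all probes reached, and 0 were lower, against 3.34%. After Benjamini-Hochberg adjustment over all tested probes 0 members and 0 of all probes passed 0.05, the smallest adjusted p of limma being 0.0915, while 1782 probes had an unadjusted p under 0.05.

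Because slide and time point coincide, limma was also run with the time point as a block. This takes out the time difference, so the spread behind its p-values is how far the shRNA differences at the 2 time points disagree. It leaves 1 residual degree of freedom per probe, against 2 without the block. In that fit 4 of 13 member probes, from the 3 genes IL4I1, IL7R and IL32, were higher at an adjusted p under 0.05, against 1.96% of all probes, and 0 were lower, against 0.972%. The 2 ALKBH3 shRNA arrays lay above both control arrays for 6 member probes, against 17.4% of all probes, and below both for 2, IL4R and IL7, against 18.6%. One of the 6 was an IL15RA probe that entered the test through its ALKBH3 shRNA arrays, and 5 were left without it. The median log2 fold change over the 9 genes, at the brightest probe of each, was 0.22, whereas the median over all tested probes was 0.0028 with quartiles of -0.12 and 0.13. That median rested on the 48 h array of ALKBH3 shRNA, without which it was -0.050.

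**Figure D1:**
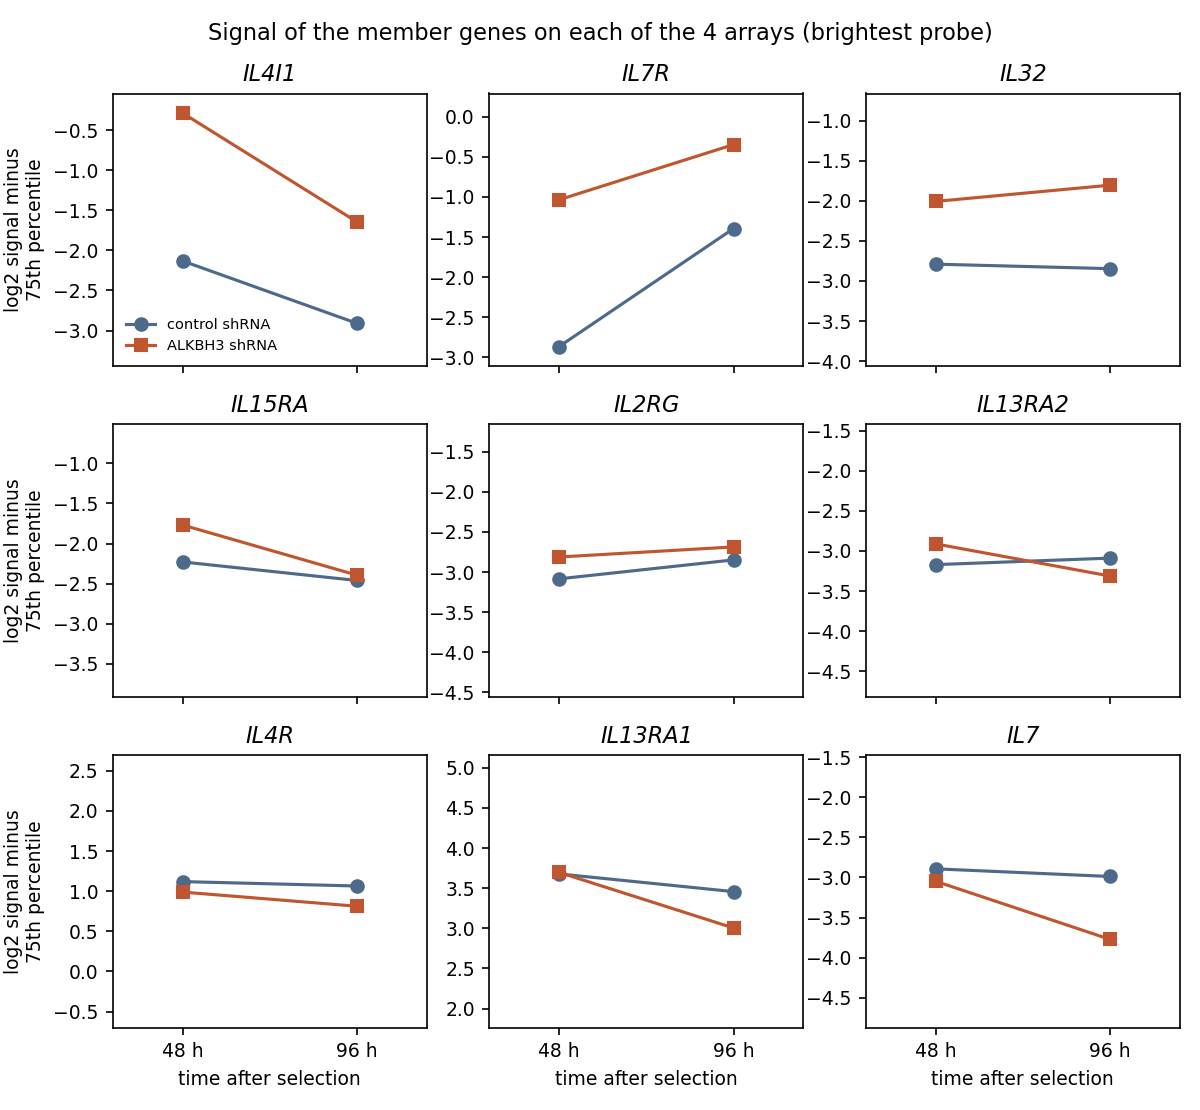
Signal of the 9 measured genes on the 4 arrays, each at its brightest probe, as log2 signal minus the 75th percentile of the array, for control shRNA (circles) and ALKBH3 shRNA (squares) at 48 h and 96 h, 1 array per point and 3.4 log2 units on each vertical axis. ALKBH3 shRNA lies above control shRNA at both times for IL4I1, IL7R, IL32, IL15RA and IL2RG and below it at both for IL4R and IL7, and the lines of IL13RA1 and IL13RA2 cross.

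IL4I1, the secreted oxidase, had 1 probe. Its signal intensity was 490 at 48 h and 311 at 96 h with control shRNA, and 1870.2 at 48 h and 765 at 96 h with ALKBH3 shRNA. Both ALKBH3 shRNA arrays were above both control arrays, by 0.49 log2 units at the closest, although the signal was lower at 96 h than at 48 h under each shRNA. Within the slides, 1 array against 1, the log2 fold change came to 1.84 (48 h) and 1.26 (96 h). Over the 4 arrays it was 1.55 with a standard error of 0.53 and a 95% interval from 0.16 to 2.94 (limma, adjusted p = 0.608, unadjusted p under 0.05). With the time point as a block the adjusted p of limma was 0.0341. IL4I1 ranked 76th from the top of 23260 probes by log2 fold change. Its call was lost without the 48 h ALKBH3 array (log2 fold change 0.88), without that of the 96 h control (1.17) and when dim probes were kept in the fit (1.55), each with an unadjusted p of limma over 0.05, as well as with the methods' t-test. The 2 probes of NUP62, which starts in the same window, had log2 fold changes of -0.026 and 0.064, with 95% intervals from -0.59 to 0.54 and from -0.46 to 0.59.

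IL7R, the IL-7 receptor chain, also had 1 probe. Its intensity was 295 at 48 h and 891 at 96 h with control shRNA, and 1116 at 48 h and 1883 at 96 h with ALKBH3 shRNA. Here too both ALKBH3 shRNA arrays were above both control arrays, but the gap between the 96 h control and the 48 h ALKBH3 array was only 0.36 log2 units. Unlike IL4I1, IL7R was higher at the later time under both shRNAs. Control cells differed by 1.47 log2 units between 96 h and 48 h, a size that 0.292% of all tested probes reached, and ALKBH3 shRNA cells by 0.69. Between the shRNAs the log2 fold change was 1.83 (48 h) and 1.05 (96 h), and with all 4 arrays 1.44 with a standard error of 0.55 and a 95% interval from -0.0026 to 2.88 (limma, adjusted p = 0.653). IL7R missed the cutoffs by the unadjusted p, and it passed them in 8 of 16 other settings, among them the fit with the time point as a block (limma, adjusted p = 0.0459). It ranked 95th of the tested probes by log2 fold change.

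IL32, the inflammatory cytokine, was measured by 2 probes with a smaller but tighter difference. At the brighter probe the intensity was 311 and 325 in the control arrays at 48 h and 96 h, and 568 and 685 in the ALKBH3 shRNA arrays. At the second probe it was 200.0 and 185 in control and 323 and 328 in ALKBH3 shRNA arrays. On both probes the groups were apart, by 0.78 log2 units at the closest on the brighter one, and the change with time within a shRNA was small next to that. The brighter probe gave log2 fold changes of 0.78 (48 h) and 1.04 (96 h), and with all 4 arrays 0.91 with a standard error of 0.13 and a 95% interval from 0.56 to 1.26 (limma, adjusted p = 0.360). The second probe gave 0.60 and 0.79 at the separate times and 0.70 with a standard error of 0.14 over the 4 arrays (limma, adjusted p = 0.389). IL32 therefore missed the 2-fold cutoff on both probes while its unadjusted p was the lowest of the members. With the time point as a block both probes were below an adjusted p of 0.05 (limma, 0.0370 and 0.0442).

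IL15RA, which presents IL-15, had 3 probes, all with higher values under ALKBH3 shRNA and none past the cutoffs. At the brightest the intensity was 458 and 425 in control and 671 and 455 in ALKBH3 shRNA arrays at 48 h and 96 h. At the second it was 315 and 258 in control and 405 and 311 in ALKBH3 shRNA arrays. In these probes the 96 h ALKBH3 array fell within the range of the control arrays, so the groups overlapped. The third probe was dim, with 32.0 and 29.8 in control and 59.4 and 38.2 in ALKBH3 shRNA arrays, and it was well above background on 1 of 2 control arrays. The log2 fold changes over the 4 arrays were 0.26, 0.26 and 0.56, with 95% intervals from -0.39 to 0.92, from -0.35 to 0.86 and from -0.14 to 1.27 (limma, adjusted p = 0.907, 0.900 and 0.728). At the brightest probe the difference was 0.46 at 48 h and 0.066 at 96 h, and without the 48 h ALKBH3 array it turned to -0.050.

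IL2RG, the common gamma chain itself, had 2 probes that did not behave alike. One gave 253 and 325 intensity units in control and 325 and 372 in ALKBH3 shRNA arrays at 48 h and 96 h. The lowest ALKBH3 shRNA array was barely above the highest control array after scaling, by 0.036 log2 units. The log2 fold change was 0.22 with a standard error of 0.14 and a 95% interval from -0.16 to 0.60 (limma, adjusted p = 0.826), so a 2-fold change lies outside the interval. The other probe read 4.38 and 6.29 intensity units in control and 12.7 and 19.1 in ALKBH3 shRNA arrays. It was well above background on no array and was not tested.

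The IL-4 and IL-13 receptor chains differed little between the shRNAs. IL4R had an intensity of 4672 and 4895 in control and 4537 and 4205 in ALKBH3 shRNA arrays at 48 h and 96 h. Both ALKBH3 shRNA arrays were below both control arrays, with log2 fold changes of -0.13 and -0.25 at the separate times and -0.19 over the 4 arrays (95% interval -0.53 to 0.15, limma, adjusted p = 0.830). IL13RA1, the chain that pairs with IL4R on epithelial cells, gave 27513 and 25706 in control and 29637 and 19207.5 in ALKBH3 shRNA arrays at its brighter probe. Here the 48 h arrays were close to each other and the 96 h ALKBH3 array was the lowest. Its log2 fold change was -0.22 over the 4 arrays (95% interval -0.92 to 0.48, limma, adjusted p = 0.937), and that of the second probe -0.096. IL13RA2, the decoy chain, read 239 and 275 in control and 304 and 241 in ALKBH3 shRNA arrays. Its groups overlapped, with the highest and, after scaling, the lowest value both from ALKBH3 shRNA, and the log2 fold change was 0.018 (95% interval -0.45 to 0.48, limma, adjusted p = 0.994). The direction for IL13RA2 turned under quantile normalization, median centring, normexp and the authors' own normalized values, and for IL13RA1 it turned to 0.13 without the 96 h ALKBH3 array.

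IL7, the one ligand of the gamma chain family among the measured members, had 1 probe with an intensity of 289 and 295 in control and 276 and 175 in ALKBH3 shRNA arrays at 48 h and 96 h. The 96 h ALKBH3 array was the lowest and the other 3 were close together. Its log2 fold change was -0.15 (48 h) and -0.78 (96 h), and with all 4 arrays -0.47 with a 95% interval from -1.17 to 0.23 (limma, adjusted p = 0.776). Ligand and receptor thus had opposite signs, IL7 below and IL7R above control at both time points, and neither passed the cutoffs.

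**Figure D2:**
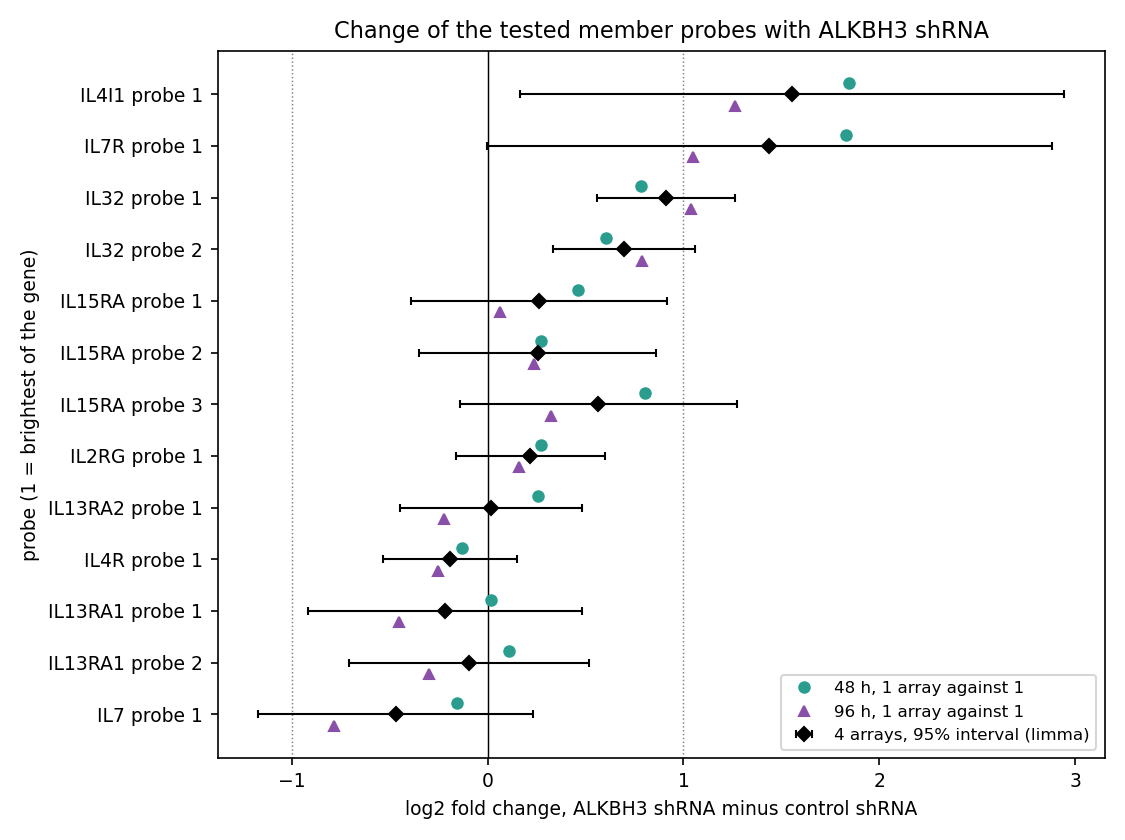
Log2 fold change of the 13 tested member probes, ALKBH3 shRNA minus control shRNA, at 48 h (circles), at 96 h (triangles) and over the 4 arrays (diamonds) with limma's 95% interval, and dotted lines at 2-fold. The interval of IL4I1 and of both IL32 probes lies above 0, that of IL7R reaches -0.0026, and all others span 0.

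The time points were compared only within slides, with 1 array against 1 and no test. At 48 h the 2 probes of IL4I1 and IL7R were at least 2-fold higher, against 1.65% of all probes, and at 96 h 3 probes, those of IL4I1, IL7R and the brighter one of IL32, against 1.32%. No member was 2-fold lower at either time, against 0.284% and 0.451% of all probes. The difference between the shRNAs was more positive at 48 h than at 96 h for 11 of 13 member probes and 8 of 9 genes, compared with 46.4% of all probes. IL32 was the exception, with both probes further apart at 96 h. The median over the genes was 0.27 at 48 h and 0.066 at 96 h, on the log2 scale. IL7R was higher at 96 h under both shRNAs, by 1.47 log2 units in control and 0.69 with ALKBH3 shRNA. Its smaller difference at 96 h went with the larger step in control. The smaller difference of IL4I1 at 96 h went with lower values under both shRNAs.

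**Figure D3:**
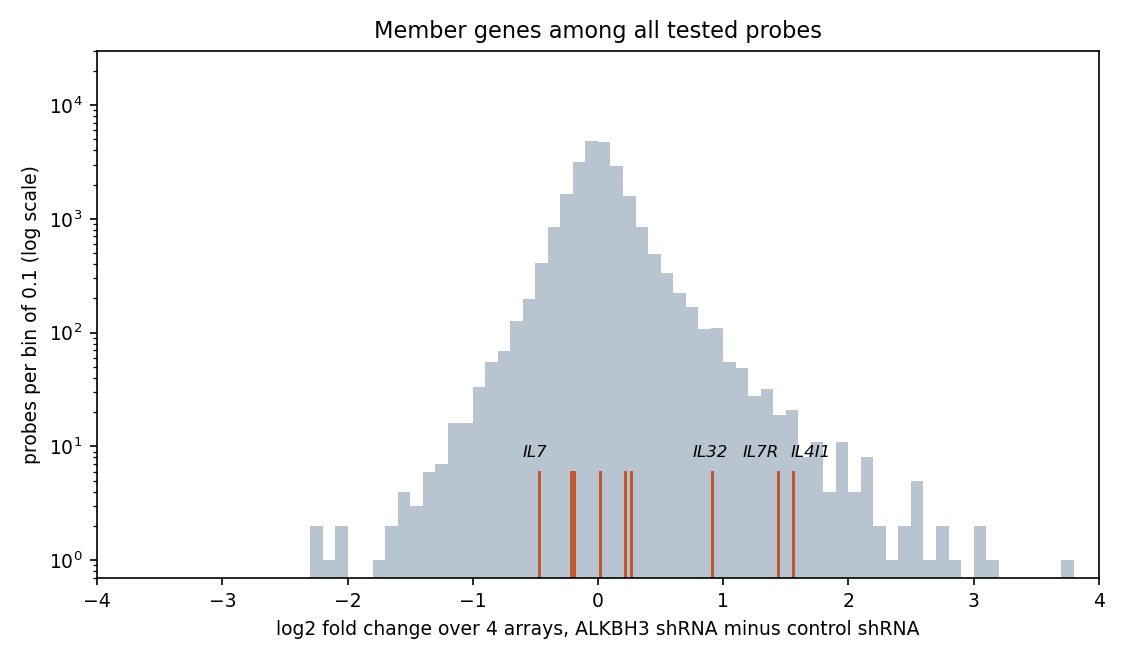
Distribution of log2 fold changes over the 4 arrays for the 23260 tested probes, in bins of 0.1 with a log scale of probes per bin, and the brightest probe of each of the 9 member genes as a vertical line. IL4I1 at 1.55, IL7R at 1.44 and IL32 at 0.91 lie in the right tail, IL7 at -0.47 is the lowest, and the other 5 genes lie between -0.22 and 0.26.

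Other genes of the same pathways were taken from 8 lists of 44 genes, of which 42 had a probe and 27 were tested. SERPINB2 and TGM2 passed the cutoffs in the higher direction and none did in the lower, where 0.886% and 0.232% of all tested probes did, and the median log2 fold change of the 27 was 0.041. Both belong to the list of STAT6 targets known from epithelium, where POSTN, CLCA1 and CDH26 were well above background on no array. Of its 10 genes 6 were tested. Of those 4 had positive values, against 50.6% of all probes. SERPINB4, one of the 4, entered the test through its ALKBH3 shRNA arrays, and SERPINB3, with a negative value, through its control arrays. SERPINB2, an inhibitor of plasminogen activation, gave 49.0 and 51.7 intensity units in control and 163 and 110.2 in ALKBH3 shRNA arrays, a log2 fold change of 1.35 with a standard error of 0.24 (limma, adjusted p = 0.387). TGM2, a transglutaminase that crosslinks proteins, gave 755.5 and 1135 in control and 1699 and 3392 in ALKBH3 shRNA arrays at its brighter probe, a log2 fold change of 1.31 with a standard error of 0.36 (limma, adjusted p = 0.517). Its second probe gave 0.88. With the time point as a block limma's adjusted p was 0.0395 for SERPINB2 and 0.0347 for the brighter TGM2 probe. The other 4 tested genes of that list, ALOX15, CCL26, SERPINB3 and SERPINB4, did not pass, and SERPINB2 was not past the fold cutoff after normexp background correction (0.74). TGM2 was not past it without the 96 h ALKBH3 array (0.85).

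In the other lists of the pathways the data differed by layer. Whether SERPINB2 and TGM2 differed through STAT6 was not tested. None of the ligand genes IL2, IL4, IL9, IL13, IL21 and TSLP could be tested, 5 of them being well above background on no array. The receptor genes IL2RA, which serves IL-2, and IL2RB, which serves IL-2 and IL-15, were at background on every array. IL9R and CRLF2 were tested and lay at -0.013 and 0.050. The 4 JAK kinases were all measured on every array, with JAK1 at -0.020 and JAK3, the partner of the gamma chain, at 0.075 on the log2 scale (95% intervals -0.36 to 0.32 and -0.84 to 0.99). STAT6 was at 0.076, with an interval from -0.37 to 0.52. None of these 3 signs was stable, since with 1 array left out JAK1 ranged from -0.087 to 0.047, JAK3 from -0.29 to 0.44 and STAT6 from -0.097 to 0.25, and JAK1 was also above 0 when scaled by probes above background on all arrays. Of the other kinases, JAK2 was at 0.039 and TYK2 at -0.23 (limma, adjusted p = 0.986 and 0.761). For TYK2 both ALKBH3 shRNA arrays were below both control arrays, as for 18.6% of all probes. STAT3, STAT5A and STAT5B were well above background on no array, and PC3 cells are known to lack a genomic segment that holds these 3 genes. Among the 6 inhibitor genes 5, the feedback genes SOCS1, SOCS2, SOCS3 and CISH and the phosphatase gene PTPN6, had positive values, against 50.6% of all probes. None passed the cutoffs, and the median log2 fold change was 0.41. CISH at 0.63 and SOCS2 at 0.46 had an unadjusted p of limma under 0.05, a mark that 4.33% of all probes reached in the higher direction. PTPN6 was at 0.067 with groups that overlapped. The 3 adaptors gave 0 calls. The AHR list had 5 of 6 genes tested, 4 of them with negative values, where 50.6% of all probes were positive, and 0 past the cutoffs. Its median of -0.21 was the value of AHR itself, and ARNT was at -0.28. The other tested genes were mixed, with CYP1A1 at 0.14, TIPARP at -0.23 and CYP1B1 at -0.092 and 0.015 on its 2 probes.

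**Figure D4:**
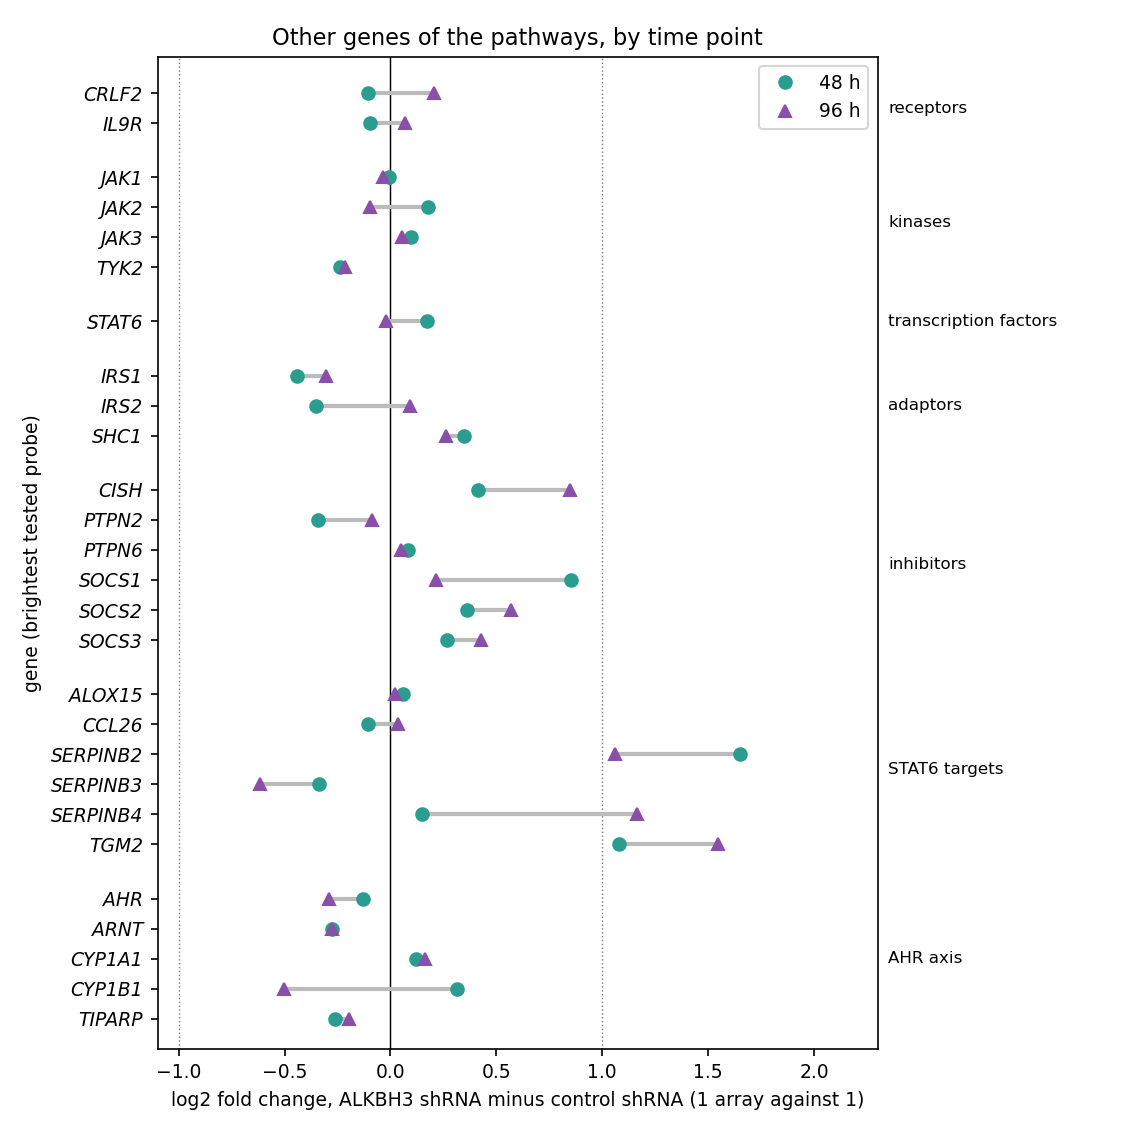
Log2 fold change at 48 h (circles) and 96 h (triangles) of the 27 tested pathway genes, each at its brightest tested probe and grouped by list, 1 array against 1 at each time, with dotted lines at 2-fold. SERPINB2 and TGM2 lie beyond 2-fold at both times. JAK1 and JAK3 lie near 0, JAK2 at 0.18 and -0.097, and TYK2 at -0.24 and -0.21.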

How the data were processed

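Total RNA of PC3 cells was labelled with Cy3 and hybridised to 4 single-colour Agilent arrays. Feature Extraction 10.7.3.1, per the file headers, gave the deposited intensity of each spot, background-subtracted by the authors. The authors also deposited log2 values normalized by them in limma, used here as an alternative. The deposited flags, listed as other values in the files, removed outlier spots and marked those well above background.

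Here log2 intensities were centred on each array's 75th percentile, spots of a probe were averaged, and a probe was tested if both arrays of either shRNA had it well above background. limma 3.58.1 in R 4.3.3 compared 2 arrays with 2 over 23260 probes, with Benjamini-Hochberg adjustment. Cutoffs were 2-fold and a p under 0.05, as the study used, taken here as unadjusted since the study does not say. Of 34127 probes 24910 were named through RefSeq accessions. Every member was described; genes of the pathway lists were named where past the cutoffs, past an adjusted p of 0.05 with the block, or fixed as key kinases and STATs. The rule does not cover the marker lists. Their genes, and SOCS1, SOCS2, SOCS3, CISH, PTPN6, IL2RA, IL9R, CRLF2, ALOX15, CCL26, SERPINB3, SERPINB4, STAT3 and the ligand genes, were named after their values were seen. So were AHR, ARNT, CYP1A1, CYP1B1 and TIPARP of the AHR list, and JAK2, TYK2, POSTN, CLCA1 and CDH26. The members and lists were chosen with earlier results of these data known. The time point paired the arrays, which shared a slide (Pearson correlation of deviations 0.66 over 23244 probes). Some genes of the lists are not reported here. The fit was tested on simulated data. Alternatives changed the background correction, normalization, filter, unit, block, test, fold cutoff and arrays used. The number of arrays limits the precision.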

Additional observations from a re-analysis of the deposited data

Results flagged for a closer look

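The log2 fold changes of IL13RA1 and IL13RA2, ALKBH3 shRNA minus control shRNA, had opposite signs at the 2 time points, with 1 array against 1 at each, and this difference between time points was not tested. IL13RA1 was at 0.019 at 48 h and -0.45 at 96 h on its brighter probe, and at 0.11 and -0.30 on its second probe. IL13RA2 was at 0.26 at 48 h and -0.22 at 96 h. Of all probes with both values, 68.7% had the same sign at both times.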

How the results depend on the processing

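The count of member probes past the cutoffs in the higher direction was 1, and 2 (IL4I1 and IL7R) after normexp, with or without quantile normalization, with the 75th percentile taken over probes above background on all arrays, with the authors' normalized values, with only such probes tested and with the time point as a replicate block. It was 3 at a 1.5-fold cutoff, where 595 of all 23260 tested probes passed in the higher direction, against 206 at 2-fold. It was 0 with the methods' t-test and 0 at an adjusted p under 0.05. With the block it was 4 at that adjusted p, which 457 of all probes passed, an alternative chosen after seeing the data. It ranged from 1 to 2 when 1 array was left out, with IL7R and IL32 and not IL4I1 past the cutoffs without the 48 h ALKBH3 array. The 2 pathway genes past the cutoffs became 1 after normexp, with or without quantile normalization, 0 with the methods' t-test, 0 at an adjusted p under 0.05, and 1 to 3 with 1 array left out, the 1 (SERPINB2) without the 96 h ALKBH3 array and the 3 without the 48 h control array. The median of the member genes ranged from -0.050 to 0.22 with 1 array left out.

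The log2 fold change of IL13RA2 turned to -0.056 after normexp and -0.060 with quantile normalization added, -0.0038 after quantile normalization alone, -0.011 with median centring, -0.077 with the authors' values, and with 1 array left out it ranged from -0.18 to 0.22. The cause was not tested. With 1 array left out IL15RA ranged from -0.050 (no 48 h ALKBH3 array) to 0.58 and IL13RA1 from -0.56 to 0.13 (no 96 h ALKBH3 array). IL4I1 (0.88 to 2.23), IL7R (0.70 to 2.17), IL32 (0.73 to 1.01), IL2RG (0.10 to 0.33), IL4R (-0.28 to -0.10) and IL7 (-0.83 to -0.11) kept their sign in the 16 settings. Changing the filter, the test or the block, or taking 1 probe per gene, left the log2 fold changes of the members as they were. No sign could turn in those settings. With the block limma called 257 probes higher and 60 lower, against 206 and 54 without it, and after normexp 77 and 27. The share of higher calls was 79.2%, and 63.4% without the 48 h ALKBH3 array. It was 88.9% without the 96 h ALKBH3 array.
With 1 control or ALKBH3 array left out, the lone array was assumed to vary like those of the other shRNA.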
